A study of Drosophila melanogaster with 3 samples.

Results

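Far intronic peaks of acj6 are places within introns where chromatin pulled down with the tagged protein was concentrated and where no coding promoter lay nearby. A peak of the reproducible list was kept when its summit lay more than 5000 bp from the transcription start site (TSS) of every protein-coding gene, inside the body of such a gene and outside its exons. Summits with the start of a non-coding RNA gene within 500 bp were left out. The rule used positions and annotation and no measured strength. It kept 1550 of 8248 peaks, or 18.8% (exact 95% interval 18.0% to 19.7%, binomial, for counting error alone). Of 2565 peaks beyond 5000 bp, 1587 lay in a coding gene body, 16 of these were dropped for an exon and 21 for a non-coding RNA start.

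The data come from chromatin immunoprecipitation and sequencing (ChIP-seq) in Drosophila melanogaster. A transgenic line stably expressing acj6 fused at its C-terminus to GFP was collected as whole white prepupae of mixed sex, and an antibody against GFP was used for the pull-down. There was 1 group of 3 biological replicates, all set against 1 shared control, with no second genotype, stage or untagged line among the samples analysed. For each replicate 30000 regions were listed with a signal value, and the reproducible list is the one that passed a test of the irreproducible discovery rate (IDR). The animals carry a tagged protein and were used whole, so peaks from the few cells that express a gene and from many cells cannot be told apart. The labels do not say whether replicates came from separate cultures, so the spread between them may be technical. The lists give no read counts, and the depth is unknown.

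acj6 is a transcription factor of the POU-homeodomain family, class IV, known for its part in the identity and wiring of olfactory neurons and for binding short AT-rich sites. Introns of insect genes hold many of the enhancers that switch genes on in given cells, and a regulatory site in an intron can act on its own gene or on a neighbour. Large introns are typical of developmental regulators, receptors and adhesion proteins. The white prepupa is the stage at which a pulse of the steroid hormone ecdysone starts metamorphosis.

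The sequence under the 6 strongest far intronic peaks found in every replicate and off the right arm of the second chromosome is given here because these peaks carry the highest signal of the set. Each runs 100 bp to either side of the summit, on the plus strand of the Release 6 genome (dm6). Capitals mark the six-base words that were most concentrated at far intronic summits, which are described below.
osa, chr3R:17704305-17704505 (plus strand): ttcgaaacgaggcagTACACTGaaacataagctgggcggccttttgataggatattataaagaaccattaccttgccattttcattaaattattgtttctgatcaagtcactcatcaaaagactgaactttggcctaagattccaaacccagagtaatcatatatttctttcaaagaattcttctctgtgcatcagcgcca
CG32486, chr3L:3060713-3060913 (plus strand): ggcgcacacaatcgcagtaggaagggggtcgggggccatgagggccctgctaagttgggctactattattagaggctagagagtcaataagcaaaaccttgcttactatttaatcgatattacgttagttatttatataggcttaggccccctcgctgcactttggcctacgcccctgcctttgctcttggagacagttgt
Hr4, chrX:1951814-1952014 (plus strand): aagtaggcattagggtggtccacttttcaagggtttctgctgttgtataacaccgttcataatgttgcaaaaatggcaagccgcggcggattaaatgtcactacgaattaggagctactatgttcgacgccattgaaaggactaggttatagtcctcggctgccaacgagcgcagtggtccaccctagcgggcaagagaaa
Mi-2, chr3L:19903172-19903372 (plus strand): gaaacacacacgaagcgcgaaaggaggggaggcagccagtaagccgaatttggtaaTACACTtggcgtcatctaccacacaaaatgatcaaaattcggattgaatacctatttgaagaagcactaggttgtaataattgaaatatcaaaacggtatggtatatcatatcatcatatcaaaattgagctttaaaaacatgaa
Raf, chrX:2300611-2300811 (plus strand): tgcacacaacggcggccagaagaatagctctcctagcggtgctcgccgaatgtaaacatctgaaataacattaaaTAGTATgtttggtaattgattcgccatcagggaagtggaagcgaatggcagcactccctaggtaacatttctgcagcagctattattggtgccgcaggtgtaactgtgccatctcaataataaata
CG42238, chr2L:21009438-21009638 (plus strand): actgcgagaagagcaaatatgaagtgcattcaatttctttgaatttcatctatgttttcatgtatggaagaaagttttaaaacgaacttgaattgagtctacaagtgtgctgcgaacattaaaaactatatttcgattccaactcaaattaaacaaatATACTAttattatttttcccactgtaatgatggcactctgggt
These 6 windows differed widely in composition, from 31.3% GC at CG42238 to 49.3% at CG32486. The windows in CG32486 and Hr4 held none of the words in capitals.

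The strongest far intronic peak lay in the fourth intron of osa (3R, summit 17704405 in dm6, as for all positions here), which encodes a subunit of the Brahma chromatin remodelling complex, and had an IDR signal of 2646. It ranked 10, 11 and 12 of 30000 in replicates 1, 2 and 3. The second, in the first intron of CG32486 (3L, summit 3060813, signal 2019), ranked 29, 31 and 24. Both were thus among the strongest regions of every replicate, and only 10 IDR peaks of any kind lay above the one in osa.

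Hr4, a nuclear receptor of the prepupal ecdysone response, held a pair of the 15 strongest peaks in its first intron on X. The summit at 1951914 had a signal of 1411 and ranked 83, 64 and 77 in replicates 1, 2 and 3. The summit at 1947753 had a signal of 1076 and ranked 209, 129 and 159. Eip75B, the early ecdysone gene for the nuclear receptor E75, had a peak in its first intron at 18011924 on 3L with a signal of 1159. That peak ranked 87 and 95 in replicates 1 and 3 and 247 in replicate 2, the widest split among the strongest peaks. Its nearest TSS, also of Eip75B, lay 12103 bp away.

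Myc, the growth-promoting transcription factor, had a peak with a signal of 1091 that ranked 191, 93 and 222 in replicates 1, 2 and 3. The peak in Raf, the kinase that links receptor tyrosine kinases to the MAP kinase cascade, had a signal of 1167 and ranked 102, 119 and 129. dpp, which encodes the BMP ligand of the imaginal discs, had a peak with a signal of 1040 that ranked 176, 106 and 262. In Myc and in dpp, replicate 2 ranked the peak highest and replicate 3 lowest. shn, a zinc-finger protein of Dpp signalling, held a peak ranked 166, 250 and 232.

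The peak at 19903272 on 3L lay in the body of Mi-2, a nucleosome remodelling ATPase, and of the overlapping gene Su(Tpl), which encodes the elongation factor ELL, and ranked 79, 111 and 101. gpp, the Dot1 methyltransferase of histone H3, had a peak ranked 132, 162 and 119, and JIL-1, a histone H3 kinase, one ranked 194, 205 and 242. The peak in tara, a regulator of the trithorax group, ranked 201, 181 and 166. CG42238 (ranks 101, 125 and 154) and comm3, of the commissureless family of axon guidance genes (ranks 142, 213 and 207), complete the 15. All 15 stood within the 262 strongest regions of each replicate.

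**Figure D1:**
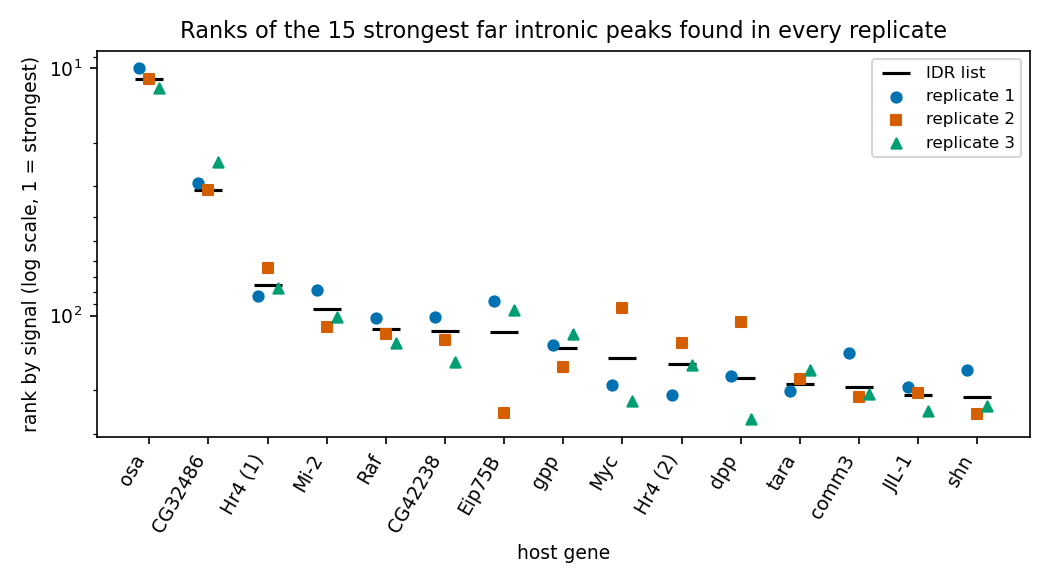
Rank by signal on a log axis, with the strongest at the top, of the 15 strongest far intronic peaks that every replicate covered; dashes are the IDR list and points the 3 replicates. The points of osa and CG32486 lie close together, while replicate 2 places the peak in Eip75B at 247 against 87 and 95.

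Despite these examples, far intronic peaks were on the whole weaker than other IDR peaks. Among them, 290 (18.7%) belonged to the strongest 25% of the IDR list, beside 25% of all IDR peaks by construction and 26.5% of the other IDR peaks. The odds ratio was 0.640 (95% interval 0.557 to 0.735, adjusted p = 2.47e-09, binomial logistic regression over all 8248 peaks with Benjamini-Hochberg adjustment over 32 measures). Peaks are not independent replicates, so this p describes the list. In the 8248 strongest regions of replicates 1, 2 and 3, 19.8%, 18.5% and 18.8% of the far intronic regions were in the strongest 25%, against 26.1%, 26.6% and 26.4% of the others. The difference was -7.32 percentage points ± 0.936 (SD, n = 3) and had the same sign in every replicate (two-sided exact sign-flip permutation test, p = 0.25, the smallest that 3 replicates allow).

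The shortfall lay mainly at the top of the list. Far intronic peaks made up 11.0% of the strongest decile, 16.4% of deciles 2 and 3, and between 18.9% and 22.1% of each decile below. Promoter peaks, with a summit within 500 bp of a coding TSS, ran the other way, from 47.3% of the strongest decile to 22.9% of the weakest. Among the 20504 pooled regions that overlapped no IDR peak, 23.7% met the far intronic rule. The median rank was 4548 of 8248 for far intronic peaks, 4085 for intronic peaks over 500 and up to 5000 bp from a TSS (near intronic) and 4615 for intergenic peaks beyond 5000 bp. The share in the strongest 25% also lay below that of near intronic peaks in each replicate, with a mean difference of -6.88 percentage points ± 1.05 (SD, n = 3, exact sign-flip p = 0.25). It lay above that of far intergenic peaks in each replicate, by 1.44 percentage points ± 0.232 on average (SD, n = 3, exact sign-flip p = 0.25).

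**Figure D2:**
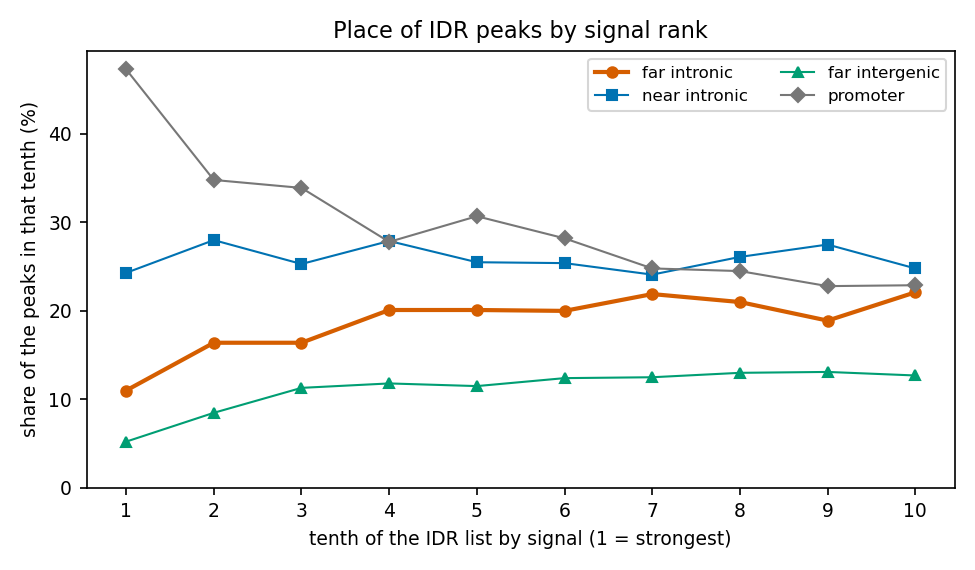
Share of each decile of the IDR list, ordered by signal with the strongest at 1, that fell in 4 classes of position. Far intronic peaks rise from 11.0% in the strongest decile to 22.1% in the weakest, and promoter peaks fall from 47.3% to 22.9%.

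Far intronic peaks were found in every replicate at a rate close to that of the whole list. Of the 1550 far intronic peaks, 1090 (70.3%) were found in all 3 replicates, meaning that 1 of a replicate's 8248 strongest regions spanned 50% of the peak or more, beside 70.6% of all IDR peaks. The odds ratio was 0.986 (95% interval 0.874 to 1.11, adjusted p = 0.873 by binomial logistic regression). Singly, 84.2%, 89.6% and 87.0% were covered in replicates 1, 2 and 3, and 7 were covered in none. When all 30000 regions of each replicate were admitted, far intronic peaks were covered more often than others (odds ratio 1.80, adjusted p = 6.41e-05, binomial logistic regression). The ranks of far intronic peaks in replicates 1 and 2 had a Spearman correlation of 0.797. The other pairs of replicates had 0.800 (1 with 3) and 0.780 (2 with 3), over 1501 to 1512 peaks that share the control and the selection for reproducibility.

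At the edge of the rule, the 101 peaks between 5001 and 5496 bp from a TSS had a median rank of 4576, and 74.3% were covered in all 3 replicates. The 135 intronic peaks between 4501 and 4991 bp, just outside, had a median rank of 4158, and 73.3% were covered. The values on either side are given as a description, with no test.

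Introns far from promoters held fewer peaks per length than introns near them. The sequence that met the rule (eligible intron) came to 29.9 Mb and held 51.8 peaks per Mb in the IDR list. In replicates 1, 2 and 3 it held 48.6, 53.2 and 49.8 per Mb. The near introns held 97.1 per Mb, the 15.3 Mb within 500 bp of a TSS 160 per Mb, and intergenic sequence beyond 5000 bp 36.5 per Mb. The mean difference from the near introns was -44.3 ± 2.37 per Mb (SD, n = 3) and that from far intergenic sequence 15.2 ± 0.903 per Mb. Both differences kept their sign in all 3 replicates (exact sign-flip p = 0.25 each).

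Peaks thinned out further with distance. The median far intronic summit was 10190 bp from the nearest coding TSS, with a range from 5001 to 86669 bp, and 265 lay beyond 20 kb. Density fell from 74.8 per Mb between 5 and 7.5 kb to 49.8 per Mb between 15 and 20 kb, and was 53.3 per Mb between 20 and 30 kb and 35.6 per Mb between 30 and 50 kb. Beyond 50 kb only 11 peaks lay in 5.05 Mb of eligible intron, or 2.18 per Mb. The replicates gave 1.58, 1.78 and 2.38 per Mb there, while in the nearest bin they gave 71.1, 76.8 and 72.6. Peaks are compared here by place and not in a test.

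**Figure D3:**
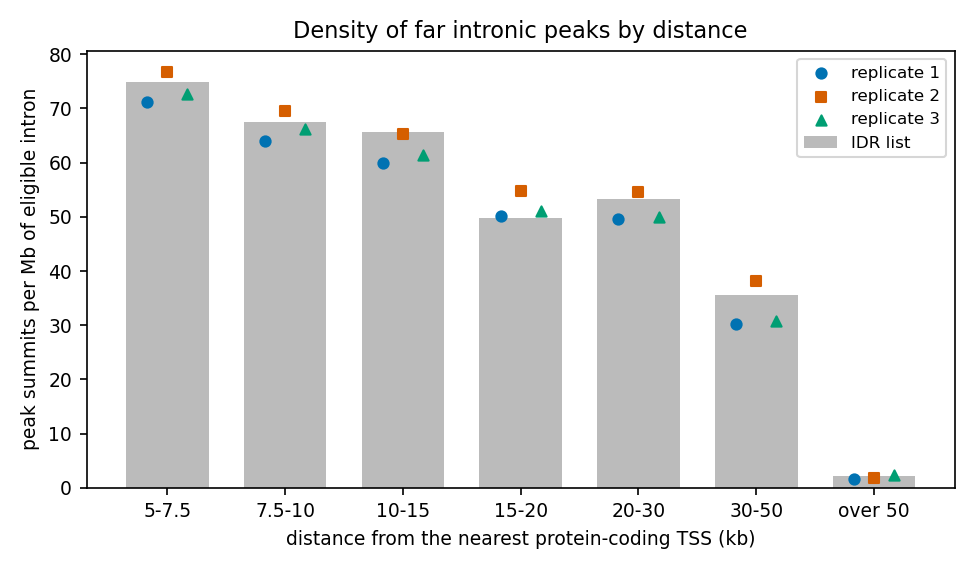
Far intronic peak summits per Mb of eligible intron, by distance from the nearest coding TSS in kb; bars are the IDR list and points the 8248 strongest regions of each replicate. Density is 74.8 per Mb in the nearest bin and 2.18 per Mb beyond 50 kb, and the replicates lie within 10 per Mb of each other in every bin.

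The stretch beyond 50 kb is unlike the rest of the eligible intron. The 5 largest eligible genes with no far intronic peak, Myo81F, Pzl, lovit, CG17684 and DIP-lambda, hold 71.5% of it, and all lie at the end of an arm next to the centromere. Myo81F alone, an unconventional myosin gene of 3R, has 1953 kb of eligible intron and no far intronic peak in the IDR list or in the strongest regions of any replicate. Within 50 kb of a TSS the density was 61.9 per Mb, a restriction chosen after seeing the data.

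Among the chromosome arms, density in the IDR list was 65.8 per Mb on 2L, 41.7 on 2R, 51.3 on 3L, 45.6 on 3R and 63.6 on X. The fourth chromosome had no far intronic peak in its 0.286 Mb of eligible intron. X stood above the pooled large autosome arms by a factor of 1.27, though not above 2L, with 1.17, 1.35 and 1.18 in replicates 1, 2 and 3. Within 50 kb of a TSS that factor was 1.03 and the replicates gave 0.945, 1.09 and 0.960, so X was above the autosomes in 1 replicate of 3.

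Far intronic peaks were concentrated in first introns. Of the 1550, 763 (49.2%, exact binomial 95% interval 46.7% to 51.7%, for counting error alone) lay in the first intron of some coding transcript, while such introns made up 30.8% of eligible sequence. The interval treats peaks as independent, though 101 hosts held 777 of them. First introns and the rest were not matched for distance from a TSS. The shares in replicates 1, 2 and 3 were 50.2%, 48.7% and 49.6%. Density was 82.8 per Mb inside first introns and 38.0 per Mb outside them, and within 50 kb of a TSS 86.2 and 48.5 per Mb. The median host intron was 19422 bp long.

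Annotated transposable elements were nearly free of them. Only 4 far intronic peaks (0.258%, exact 95% interval 0.0704% to 0.659%, for counting error alone) fell in a transposable element, against 8.84% of the eligible sequence. The shares in the replicates were 0.138%, 0.188% and 0.269%. How reads that map to many places were treated is not given in the sources used here. Bodies of non-coding RNA genes held 49 far intronic peaks (3.16%), against 2.13% of eligible sequence.

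The 1550 peaks fell in 514 host genes, where the host is the longest coding gene body around the summit. That is 29.2% of the 1763 coding genes with any eligible intron. In replicates 1, 2 and 3 there were 500, 514 and 503 hosts, and 433 of the 514 had a far intronic region in every replicate. The share of genes that were hosts rose with the amount of eligible intron, from 3.06% of genes with up to 2 kb to 61.4% of genes with over 50 kb. A single peak was found in 203 hosts, while 101 hosts with 5 or more held 777 of the peaks (50.1%). Another IDR summit lay within 1 kb for 25% of the far intronic peaks. The nearest coding TSS belonged to the host for 1014 peaks (65.4%), and to another gene for the rest.

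The 10 hosts with the most peaks held 13 to 22 each. kirre (X, 2740384 to 3134532, plus strand), an immunoglobulin-family adhesion protein of myoblast fusion, held 22 in its 233 kb of eligible intron, with 18, 22 and 22 in replicates 1, 2 and 3. Snoo, a nuclear protein of TGF-beta signalling, held 21 (23, 22 and 20 in the replicates), and Tet, a dioxygenase of nucleic acid methylation, held 19 (18 in each replicate). SKIP had 16 (16, 16 and 15). The immunoglobulin-family gene plum had 14 (11, 16 and 11), as had the atypical cadherin gene ds (12, 12 and 13) and CG43658 (10, 15 and 12). sbb had 13 (15, 10 and 13), as had the Wnt receptor gene fz (14, 14 and 12) and the adhesion gene ed (12 in each). The replicates thus differed by 5 in plum, CG43658 and sbb and by less in the other hosts of this group.

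Other hosts were dense for their size. Mkp3, a phosphatase of MAP kinase, held 5 peaks in 4.03 kb of eligible intron, or 124 per 100 kb. chm, a histone acetyltransferase, followed with 104 per 100 kb, then Reck, an inhibitor of matrix metalloproteases, with 101. Mnt, the repressor that competes with Myc for Max, held 8 peaks in 10.9 kb (73.5 per 100 kb) and tara 9 in 16.1 kb (55.8). The replicates gave 3, 4 and 4 regions in Mkp3, 4 in each for chm and for Reck, 6, 8 and 6 in Mnt, and 9, 8 and 11 in tara. All eligible intron together held 5.18 per 100 kb.

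Nuclear receptors and patterning genes had the highest shares of hosts among 9 gene lists. The share lay above the 29.2% of all eligible genes in every list but that of ion channels, beside 47.3% of all genes with 10 to 20 kb of eligible intron. Of the 16 eligible nuclear receptors and ecdysone response factors, 13 (81.2%) were hosts (14, 13 and 13 in replicates 1, 2 and 3). Together they held 12.9 peaks per 100 kb of eligible intron. Eip75B had 9 peaks, Hr4 had 8 and tai, the ecdysone receptor coactivator taiman, had 7. Of 39 eligible genes of imaginal disc patterning and growth signalling, 31 (79.5%) were hosts (30, 30 and 29), at 16.8 per 100 kb. There ds had 14 peaks, fz 13 and pnt, the ETS factor downstream of the EGF receptor, 8.

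Lists of growth control, chromatin and cell shape also had densities above that of all eligible intron. Of 12 eligible genes of insulin, Tor and growth control, 7 (58.3%) were hosts at 18.3 per 100 kb, with 8 peaks in Mnt, 4 in sima, the hypoxia-inducible factor, and 3 in Myc. Of 18 eligible broadly used chromatin and transcription regulators, 8 (44.4%) were hosts at 16.5 per 100 kb, led by the GATA cofactor gene ush with 5, osa with 4 and the methyltransferase gene trx with 3. Of 22 cytoskeleton and epithelial shape genes, 12 (54.5%) were hosts at 12 per 100 kb, with 7 peaks in pyd, a junction scaffold, and 4 each in scrib and the kinase gene Abl. The muscle list was nearer to all genes, with 6 hosts of 16 (37.5%) at 7.55 per 100 kb and 9 peaks in twi, the mesoderm determinant twist.

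The lists of neuron identity, axon guidance and ion channel genes had lower densities than those above. acj6 is best known to act in neurons. Of 39 eligible POU, LIM, other homeodomain and neuron identity factors, 16 (41%) were hosts (15, 15 and 17 in the replicates) at 6.21 per 100 kb. Both values lay above those of all eligible genes, 29.2% and 5.18 per 100 kb. The leading hosts of that list were hth, a homeodomain partner of Hox proteins, with 13, bab1 with 9 and fru, the courtship regulator, with 7. Of 57 axon guidance and adhesion genes, 25 (43.9%) were hosts at 4.03 per 100 kb, among them kirre with 22, Fas3 with 11 and Sema1a with 7. Of 45 ion channel and transmitter receptor genes, 3 (6.67%) were hosts (4, 6 and 3 in the replicates), at 0.565 per 100 kb. Those were Ca-beta with 3 peaks, nAChRalpha6 with 2 and nAChRalpha5 with 1, and the last had a region among the strongest in replicates 1 and 3 only.

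The lists also differed in how much intron they offer. The median eligible intron was 20.2 kb for ion channels and 28.6 kb for axon guidance genes, above the 17.7 kb of the ecdysone list, the 11.8 kb of the patterning list, the 10.2 kb of the neuron identity list and the 6.03 kb of all eligible genes. Density itself differed with size. Among all eligible genes it was 7.81 per 100 kb in those with 10 to 20 kb of eligible intron. It was 5.87 at 20 to 50 kb and 3.47 over 50 kb, and 5.16 in genes with up to 2 kb. The group over 50 kb includes 3.84 Mb of eligible intron in the 5 largest genes without a far intronic peak, named above. Whether size accounts for the lower densities of the neuron identity, axon guidance and ion channel lists was not tested. The lists were drawn up with earlier results of these data known, so the counts describe them and were not tested.

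**Figure D4:**
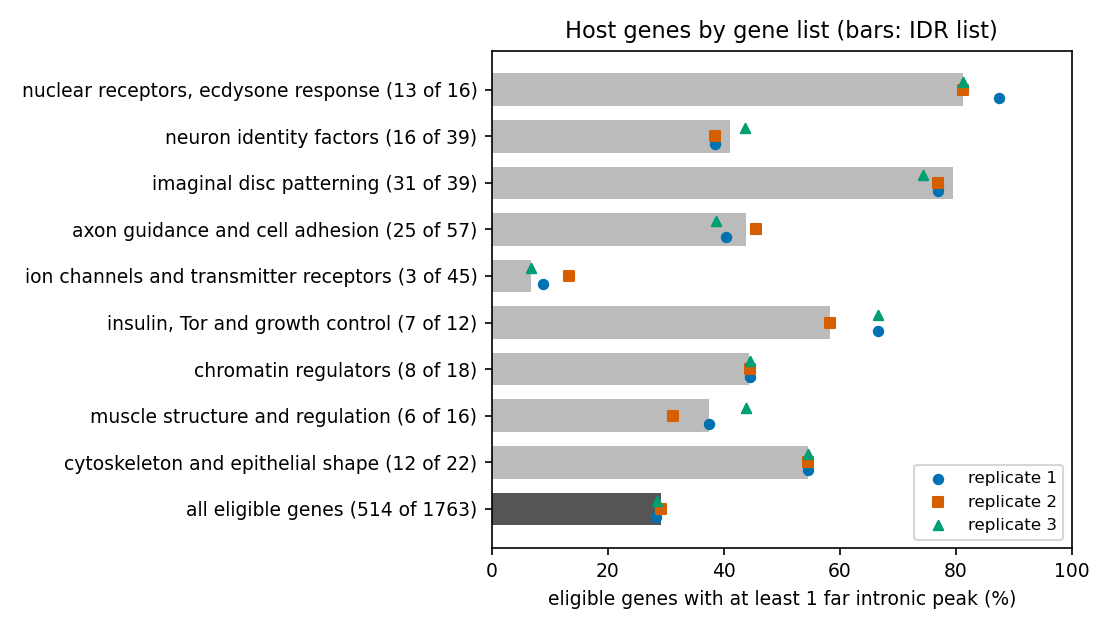
Share of eligible genes with at least 1 far intronic peak, in percent, for 9 gene lists (grey bars) and all eligible genes (dark bar) in the IDR list, with the number of hosts and eligible genes beside each name and the replicates as points. Nuclear receptors and patterning genes lie furthest to the right and ion channels furthest to the left in each replicate.

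Exact matches to the long binding words of POU factors compared here were found at few of these summits. The class IV POU short form ATTAATGAG was found within 100 bp of the summit of 4 far intronic peaks (0.258%), beside 0.323% of windows 1 kb to either side and 0.388% of the other IDR peaks (odds ratio 0.657, adjusted p = 0.547 by binomial logistic regression). The octamer ATGCAAAT was found at 56 (3.61%), against 4.16% of the flanks. Among the other IDR peaks it was found at 3.08% (odds ratio 1.18, adjusted p = 0.446 by binomial logistic regression). In the replicates the ratio of summit to flank was 1.11 ± 0.341 (SD, n = 3) for the short form and 0.827 ± 0.114 for the octamer. The shorter homeodomain core TAATTA was found at 16.8% of far intronic peaks, against 15.8% of the flanks, with a ratio of 1.11 ± 0.0569. Among the other IDR peaks TAATTA was found at 18.8% (odds ratio 0.858, adjusted p = 0.120 by binomial logistic regression). No match says only that these letters are not in the window. The sites of the short form off the right arm of the second chromosome are shown with the match in capitals and 16 bp on either side, so that a reader can see how little they share beyond it.
CG6051, chr3R:27140021-27140061 (minus strand): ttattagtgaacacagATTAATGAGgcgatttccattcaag
wat, chr3R:28999314-28999354 (minus strand): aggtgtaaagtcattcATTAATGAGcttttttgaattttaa
CG32091, chr3L:11636970-11637010 (minus strand): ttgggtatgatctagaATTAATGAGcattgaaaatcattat
The peaks around them had IDR ranks of 3205 (CG6051), 4876 (wat) and 7092 (CG32091), on either side of the far intronic median of 4548.

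Of 30 known words compared with the other IDR peaks, 6 (20%) were called at an adjusted p under 0.05, with the GC content of the window as a covariate. A run of 8 A was more frequent at far intronic summits (21.9% against 17%, odds ratio 1.35, adjusted p = 0.000201 by binomial logistic regression). Lower were TATCGATA, the element of the promoter factor DREF (0.516% against 2.05%, odds ratio 0.255), the E-boxes CAGCTG (0.677) and CACGTG (0.392), the Grainyhead word ACCGGTT (0.101) and CGATA, the word of the boundary protein BEAF (0.729). The other IDR peaks include the promoter peaks, which the rule leaves out, and all 5 lower words were commonest there. TATCGATA was found at 5.05% of promoter, 0.281% of near intronic and 0.108% of far intergenic peaks. CGATA was found at 32.4%, 20.2% and 17.8% of these, beside 18.5% of far intronic peaks. The other 24 did not pass, among them AGGTCA, the hexamer of nuclear receptors, at 4.26% against 4.21%. Against near intronic peaks alone, 0 of the 30 passed in the same logistic regression and 3 had an unadjusted p under 0.05. The 6 calls therefore hold against the IDR list as a whole and were not made against other intronic peaks. With 50 bp on each side of the summit 1 passed, TATCGATA, and each of the 6 lost its call under at least 1 alternative. The counts of Grainyhead and CACGTG words are low, at 0.0645% and 0.645% of far intronic peaks.

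The DNA at far intronic summits had a marked shape of composition, which near intronic and far intergenic summits shared. Within 100 bp of the summit GC content was 33.6% on average, against 40.6% in windows 1 kb away. The difference was -7.05 percentage points in the IDR list and -6.38, -6.75 and -6.97 in replicates 1, 2 and 3 (exact sign-flip p = 0.25). It was not a simple dip: GC content was 30.4% in the 51 bp at the summit, rose to 46.5% and 46.2% at 300 bp on the left and right, and came back to 40.5% by 700 bp. Near intronic and far intergenic peaks followed a like course, with 31.1% and 30.5% at the summit. Their differences from windows 1 kb away were -7.07 and -7.26 points, and that of promoter peaks was -9.59 points.

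Some six-base words were concentrated at the summits. Of 2080 words counted with their complements, 200 were at least 1.5 times as frequent at far intronic summits as in the flanks. Another 283 were at most 0.5 times as frequent. The ratios were not corrected for the lower GC content of the summits. The highest were AGTGTA (2.78 times), GTGCAC (2.77), ACTGAG (2.75), ACACTG (2.59), CAGTGC (2.48) and ATACTA (2.38). Their ratios repeated in the replicates, for example 2.62, 2.73 and 2.66 for AGTGTA. The lowest were CCCGGG (0.158), CGGCCG (0.169), CGGACG (0.171) and CCCGGC (0.177), all made of G and C but for 1 letter at most. ACACTG and CAGTGC share the core CAGTG, or CACTG on the other strand, while GTGCAC and ATACTA do not hold it. That core was found at 50.4% of far intronic summits and in 27.9% of the flanks. It was also found at 46.6% of near intronic, 50.4% of far intergenic and 41.6% of promoter summits.

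Longer words built on this core stood out more. CACTGAGA, on either strand, was found at 104 far intronic summits (6.71%), in 79 host genes, and in 0.613% of the flanks. In replicates 1, 2 and 3 the share was 6.81%, 6.72% and 5.91%, with 0.619%, 0.659% and 0.604% in the flanks. TGCACTG was found at 14.4% of summits and 3.87% of flanks, TACACTG at 9.87% and 1.58%, and ACCACTGT at 3.35% and 0.516%. At least 1 of these 4 was present at 438 far intronic summits (28.3%) and in 6.23% of the flanks. They were chosen after the values were seen, so these shares are a description.

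Sites of CACTGAGA in strong peaks show what surrounds the word. The 41 bp around it are printed for the 8 strongest far intronic peaks that hold it, were found in every replicate, lie off the right arm of the second chromosome and have different hosts. All are turned so that the word, in capitals, reads in the same direction.
Cad86C, chr3R:10834988-10835028 (plus strand): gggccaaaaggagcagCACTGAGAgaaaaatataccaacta
Snoo, chr2L:7916422-7916462 (plus strand): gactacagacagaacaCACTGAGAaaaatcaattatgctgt
gukh, chr3R:18995778-18995818 (plus strand): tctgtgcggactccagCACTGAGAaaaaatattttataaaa
cv-c, chr3R:14413635-14413675 (minus strand): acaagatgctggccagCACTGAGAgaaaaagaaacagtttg
Tet, chr3L:2847338-2847378 (plus strand): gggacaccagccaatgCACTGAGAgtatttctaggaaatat
CG6959, chr3R:11849889-11849929 (minus strand): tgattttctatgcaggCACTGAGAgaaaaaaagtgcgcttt
kirre, chrX:3047847-3047887 (plus strand): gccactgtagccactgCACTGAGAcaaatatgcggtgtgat
pum, chr3R:9147689-9147729 (minus strand): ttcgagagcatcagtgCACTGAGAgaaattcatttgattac
An A-rich stretch follows the word in most of them. Over all 109 sites at far intronic summits, the base after the word was G in 57.8%, and the next 3 were A in 89%, 97.2% and 80.7%. The bases just before it were less fixed, and the commonest of them reached 57.8%. Farther out the sites were not copies of one another. Over 25 bases, leaving out the word and 4 bases on either side of it, the closest pair of sites in different peaks agreed in 64.0%, and the median best match was 52.0%.

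The peaks that hold these 8 sites, which were chosen as found in every replicate, differed in how evenly the replicates ranked them. The one in Cad86C, a cadherin gene, ranked 269, 267 and 272 in replicates 1, 2 and 3, and the one in Snoo 258, 392 and 237. gukh had ranks of 316, 419 and 360, and cv-c 611, 661 and 349. The peak in Tet ranked 698, 1056 and 1127, that in pum, the translational repressor pumilio, 1104, 1157 and 1477. As a group, peaks with CACTGAGA were close to the others in strength: 21.2% were in the strongest 25%, against 18.5% of far intronic peaks without it, and the median ranks were 4314 and 4570.

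These words pointed at the summit. Read from its 5′ end, CACTGAGA ran towards the summit at 108 of 109 sites (99.1%) within 100 bp. In replicates 1, 2 and 3 the share was 96.0%, 97.3% and 96.6%. In the windows 1 kb away, 7 of 15 sites (46.7%) ran towards the centre of the window. TACACTG ran towards the summit at 144 of 160 sites (90.0%) and TGCACTG at 208 of 248 (83.9%), while ACCACTGT ran away from it at 48 of 52, which turns its complement ACAGTGGT towards it. In the flanks ACCACTGT ran towards the centre at 13 of 15 sites. Sites at the summit itself were left out. Direction was not used in choosing the words.

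Few words behaved this way. Of 1559 six-base words with at least 50 sites at far intronic summits, the median had 56.2% of its sites in the commoner direction and the 95th percentile was 68.8%. Only 24 (1.54%) had 75% or more, and none of these 24 reached 75% in the same direction in the flanks. The highest were ACACTG (87.9%), CACTGA (84.5%), CTGAGA (84.3%), ACTGAG (83.8%) and GAGAAA (83.7%). The first 4 of these 5 overlap within the longer words above, and GAGAAA spans the end of CACTGAGA and the A-rich stretch after it. Their shares in the flanks lay between 48.1% and 54.6%.

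The core was also most frequent at a distance from the summit. In windows of 21 bp, the core CAGTG was present in 2.58% of far intronic peaks at the summit itself, in 9.61% at 80 bp to the left and in 8.71% at 80 bp to the right, and in 3.42% at 200 bp to the left. The 3 replicates gave 8.26%, 8.79% and 7.25% at 80 bp to the left and 3.10%, 2.45% and 2.48% at the summit. Other classes of peaks had a like course. Far intergenic peaks had 8.45% and 8.13% at 80 bp to the left and right and 2.28% at the summit, and near intronic peaks 7.73%, 8.43% and 2.53%. The median distance of CACTGAGA from the summit was 65 bp, over sites within the 100 bp searched. In windows of 51 bp it was present in 0.323% of peaks at the summit, 1.81% at 50 bp to the left and 0.323% at 1000 bp to the left. TACACTG was present in 0.839%, 2.45% and 0.516% at these places, and TGCACTG in 1.35%, 2.90% and 0.903%. These longer words were thus rarer at the summit than beside it, but not below their level at 1000 bp to the left.

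**Figure D5:**
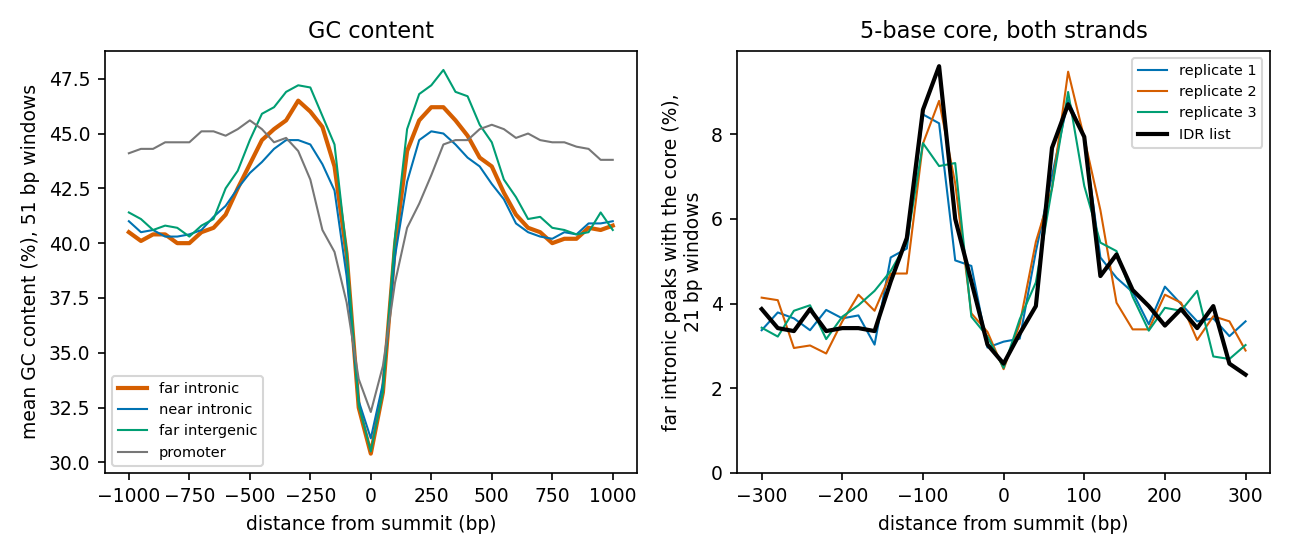
Left, mean GC content in 51 bp windows around the summits of 4 classes of IDR peaks; right, share of far intronic peaks with the 5-base core on either strand in 21 bp windows, for the IDR list and each replicate. GC content falls to 30.4% at far intronic summits between shoulders near 46%, and the core has its maxima about 80 bp from the summit on both sides and falls to 2.58% at the summit between them.

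The words were not confined to far introns. CACTGAGA was found at 4.26% of near intronic, 7.48% of far intergenic and 1.83% of promoter summits, and it pointed at the summit in 94.7%, 97.3% and 83.7% of its sites there. In all eligible intron the word occurred 1031 times, or 34.5 times per Mb, and 10.8% of these sites lay within 100 bp of a far intronic summit. Around those summits its density was 358 per Mb. The other copies in eligible intron lay farther than that from any of them.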

How the data were processed

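Per the labels, chromatin of whole acj6-GFP white prepupae was immunoprecipitated with an antibody against GFP in 3 biological replicates and the reads were placed on dm6. The authors deposited, for each replicate and for the pooled reads, a list of 30000 regions, and a list of 8248 IDR peaks. Each has the signal value given by the authors' peak caller, which is not scaled between lists and served here only to rank regions within a list. All IDR peaks are the 8248 strongest regions of the pooled list. Which aligner, caller and IDR threshold were used is not given in the sources used here. Members and gene lists were chosen with earlier results of these data known.

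Summits were set against Ensembl's annotation of Release 6 (13945 protein-coding genes on 6 arms) and NCBI's sequence of it. Replicates were compared over their 8248 strongest regions, with coverage of at least 50% of a peak by 1 region. Binary measures (30 words, on either strand within 100 bp of the summit, with GC content as covariate, coverage and the strongest 25%) were tested by binomial logistic regression with likelihood ratio tests over all IDR peaks and Benjamini-Hochberg adjustment over the 32 (threshold 0.05). Differences over replicates had exact sign-flip permutation tests, two-sided. Genes named are the hosts of the 15 strongest peaks covered in every replicate, the 10 hosts with most peaks, the 5 densest hosts with at least 4 peaks and up to 3 of each of 9 lists, and the 6 highest and 4 lowest six-base words. The 5 genes without peaks, the longer words and their hosts were chosen after their values were seen. Motif letters overlap in part (CGATA lies in TATCGATA). In all, 3 member intervals repeat with another summit and 1 summit lies outside its interval, and all were kept. The calculations used statsmodels 0.14.6 and SciPy 1.17.1 under Python 3.11.15 and were tested on simulated data.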

Additional observations from a re-analysis of the deposited data

How the results depend on the processing

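Placing the TSS limit at 10000 bp or 2500 bp changed the share of IDR peaks that were far intronic to 9.58% or 27.6%, the density to 40.9 or 58.1 per Mb and the share of eligible genes that were hosts to 32.0% or 22.0%. In the stronger 50% of the IDR list these were 16.8%, 23.2 per Mb and 18.2%. Among IDR peaks covered in all 3 replicates density was 36.4 per Mb and 23.9% of genes were hosts; both fall by construction, since fewer peaks remain. Within 50 kb of a TSS, added after seeing the data, density was 61.9 per Mb. To leave out 1 replicate, IDR peaks covered in both of the others were kept, while the IDR list still rested on all 3. Only 1177 to 1222 of the 1550 far intronic peaks remained, so density and host share again fall by construction. These runs gave a far intronic share of 18.4% to 18.9%, 39.3 to 40.8 per Mb and 25.1% to 25.4% of genes. They gave a GC difference of -7.18 to -7.15 points and 6 to 7 words called. The odds ratio for the strongest 25% was 0.621 to 0.653, and this measure passed in every alternative run. For the odds ratio of coverage, all IDR peaks were kept and coverage was asked of the others only. The odds ratio of coverage in all replicates turned from 0.986 to 1.56 in the stronger 50% of the list (adjusted p = 0.0252, binomial logistic regression), 1.09 at an overlap of 80% and 1.80 with all regions of each replicate, and ran from 0.902 to 1.04 without 1 replicate (1.04 without replicate 1 and 1.01 without replicate 3). The cause was not tested. The GC difference was -9.50 points with 50 bp on each side of the summit and -9.79 with flanks at 500 bp. The count of words called fell from 6 to 1 with 50 bp on each side and to 0 against near intronic peaks, where the odds ratio of TATCGATA turned to 1.86 (adjusted p = 0.526, binomial logistic regression). Of 145 values under alternatives, 102 counted as unchanged. For tested values that meant the same direction and the same side of 0.05. For untested values it meant a change under 1 SD of the replicates, or within a set factor for the count of words. By that measure 22 untested values moved. In 15 cases the odds ratio of a word kept its direction but lost its call. The direction turned for 5 odds ratios of coverage and for 1 of a word. With 3 replicates no permutation test can pass 0.05, and with no read counts the depth sets no stated limit. No paired analysis was possible because there is only 1 group.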
